A study of Rattus norvegicus with 12 samples.

Results

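Tubulin isotypes are the alpha and beta tubulin genes whose proteins pair into the building block of microtubules. The group described here was set by name as 10 symbols, the alpha genes Tuba1a, Tuba1b, Tuba1c and Tuba4a and the beta genes Tubb2a, Tubb2b, Tubb3, Tubb4b, Tubb5 and Tubb6. Of the 30454 genes in the deposited count table, 10 rows carried one of these names. They covered 9 of the 10 symbols: Tuba1c had 2 rows, which are given by their Ensembl identifiers, and no row named Tuba1b was found, so Tuba1b is not analysed here. Whether the Tuba1a row or either Tuba1c row holds reads of Tuba1b could not be settled. All 10 rows were among the 13692 genes with enough counts for testing.

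RNA was sequenced from rat cells labelled PC12, a line derived from a tumour of the adrenal medulla that is known for growing neurites with nerve growth factor. There were 12 bulk libraries, 4 in each of 3 groups, and in all 3 groups the cells had gone through oxygen and glucose deprivation followed by reoxygenation, a culture model of interrupted blood supply. The OGDR group received nothing further, the MSCs group also had mesenchymal stem cells, and the rTMS_MSCs group (labelled rTMS-MSCs) had the stem cells plus 10 Hz repetitive transcranial magnetic stimulation, in which a coil delivers trains of magnetic pulses. The labels give 48 h after treatment for every library. They do not give the source of the stem cells, nor whether stem cells were in the dish when RNA was taken, and they name no genotype. No cells without deprivation and none with stimulation alone were analysed here.

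An alpha and a beta subunit form the dimer that is added to and lost from microtubule ends, and a cell makes both classes from several genes whose proteins differ mainly in their acidic tails. The beta isotypes Tubb2a, Tubb2b and above all Tubb3 are known from neurons and growing neurites, Tubb5 and Tubb4b are broadly made, and Tubb4b is also known from cilia. Tubulin messages are controlled by the protein they encode: when free dimers are plentiful, Ttc5 binds the new chain at the ribosome and, through Scaper, brings in the CCR4-NOT complex that degrades the message.

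Stretches upstream of the start are shown for Tubb2b, Tubb3 and Tubb2a because these beta isotypes had the largest fold differences of the 10 rows in both comparisons with OGDR cells. They were picked for this after those values were seen. Each stretch is the 250 bases before the RefSeq start on build GRCr8, on the plus strand, at chr17:31001936-31002185 for Tubb2a, chr17:30952836-30953085 for Tubb2b and chr19:68365437-68365686 for Tubb3. The counts were made on another build, mRatBN7.2. Capitals mark, on either strand, TGACG (the core of the cyclic AMP response element, CRE), CCAAT (the CCAAT box) and GGGCGG (the GC box).
Tubb2a: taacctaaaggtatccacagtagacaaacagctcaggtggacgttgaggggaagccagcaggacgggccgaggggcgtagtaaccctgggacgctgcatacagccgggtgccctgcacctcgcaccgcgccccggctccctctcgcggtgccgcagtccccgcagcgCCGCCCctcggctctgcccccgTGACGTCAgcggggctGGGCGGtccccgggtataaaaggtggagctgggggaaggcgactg
Tubb2b: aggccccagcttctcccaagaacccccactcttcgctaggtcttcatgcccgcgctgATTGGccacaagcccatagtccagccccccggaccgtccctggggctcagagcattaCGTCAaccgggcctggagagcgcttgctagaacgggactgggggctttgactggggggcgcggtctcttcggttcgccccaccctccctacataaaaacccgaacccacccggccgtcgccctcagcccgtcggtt
Tubb3: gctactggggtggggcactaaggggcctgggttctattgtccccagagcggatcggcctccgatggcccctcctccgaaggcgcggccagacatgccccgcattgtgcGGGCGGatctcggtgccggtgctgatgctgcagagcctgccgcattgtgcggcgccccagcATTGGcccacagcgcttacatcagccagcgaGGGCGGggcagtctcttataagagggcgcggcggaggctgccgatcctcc

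The Tubb2a stretch held the full CRE, TGACGTCA, 61 to 54 bases before the start, a palindrome that contains the core once on each strand. It also held 2 GC boxes, a TATA box (TATAAA) 31 to 26 bases before the start, and no CCAAT box. The Tubb2b stretch held a CRE core 136 to 132 bases and a CCAAT box 193 to 189 bases before the start, both on the minus strand, and no GC box. The Tubb3 stretch held a CCAAT box on the minus strand at 81 to 77 bases and GC boxes at 142 to 137 and 50 to 45 bases, and no CRE core. The promoters of all 10 symbols could be matched, Tuba1b included. Among them 3 held a CRE core (Tubb2a, Tubb2b and Tuba4a), 1 the full CRE, 8 a CCAAT box, 9 a GC box, 8 an E-box (CANNTG) and 2 a TATA box (Tubb2a and Tubb4b). Over 33360 distinct upstream sequences of the same length in the RefSeq table, 18.2% held the core, 1.59% the full CRE, 34.0% a CCAAT box, 30.5% a GC box, 65.5% an E-box and 12.9% a TATA box, with both strands searched. These are matches of letters only. Tubb2b and Tubb2a lie next to each other on chromosome 17, with 1 gene, Tubb2al1, between their starts, while Tuba1a, Tuba1b and Tuba1c are all on chromosome 7.

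Between 18246250 and 20471838 reads per library were counted in genes. Levels are given as CPM, which scales counts to the same library total, on TMM-scaled library sizes, and differences as log2 fold changes with their standard errors (SE) from 1 edgeR quasi-likelihood fit over the 12 libraries. The words rose, fell and changed are kept for genes whose p-value was under 0.05 after Benjamini-Hochberg adjustment across the 13692 genes. Whether the 4 samples in a group came from separate cultures is not stated in the labels. The p-values thus measure the spread between these samples, which may be technical. The libraries rTMS_MSCs 3 and MSCs 3 stood apart on the component that held 18.1% of the variance, at 32.4 and -30.8. Over the 10 tubulin rows, rTMS_MSCs 3 had the highest level of all 12 libraries in 8. OGDR 4 had the lowest of all 12 in 6. Isotype differences that involve the rTMS_MSCs group are therefore also given without rTMS_MSCs 3. The marker genes and related genes named further on are given with all 12 libraries.

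Defining markers of chromaffin cells, from which PC12 derives, were at or near 0: Ddc had no count in any library, and Th averaged 0.479 CPM, Dbh 0.638 CPM and Chga 0.0721 CPM. Scg2, at a mean of 234 CPM, carried most of the summed level of the 10 chromaffin genes. Among 12 Schwann or glial genes, Sox10 averaged 396.5 CPM and Ncam1 549 CPM. The cells are called by their label here, and these marker levels go against it.

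**Figure D1:**
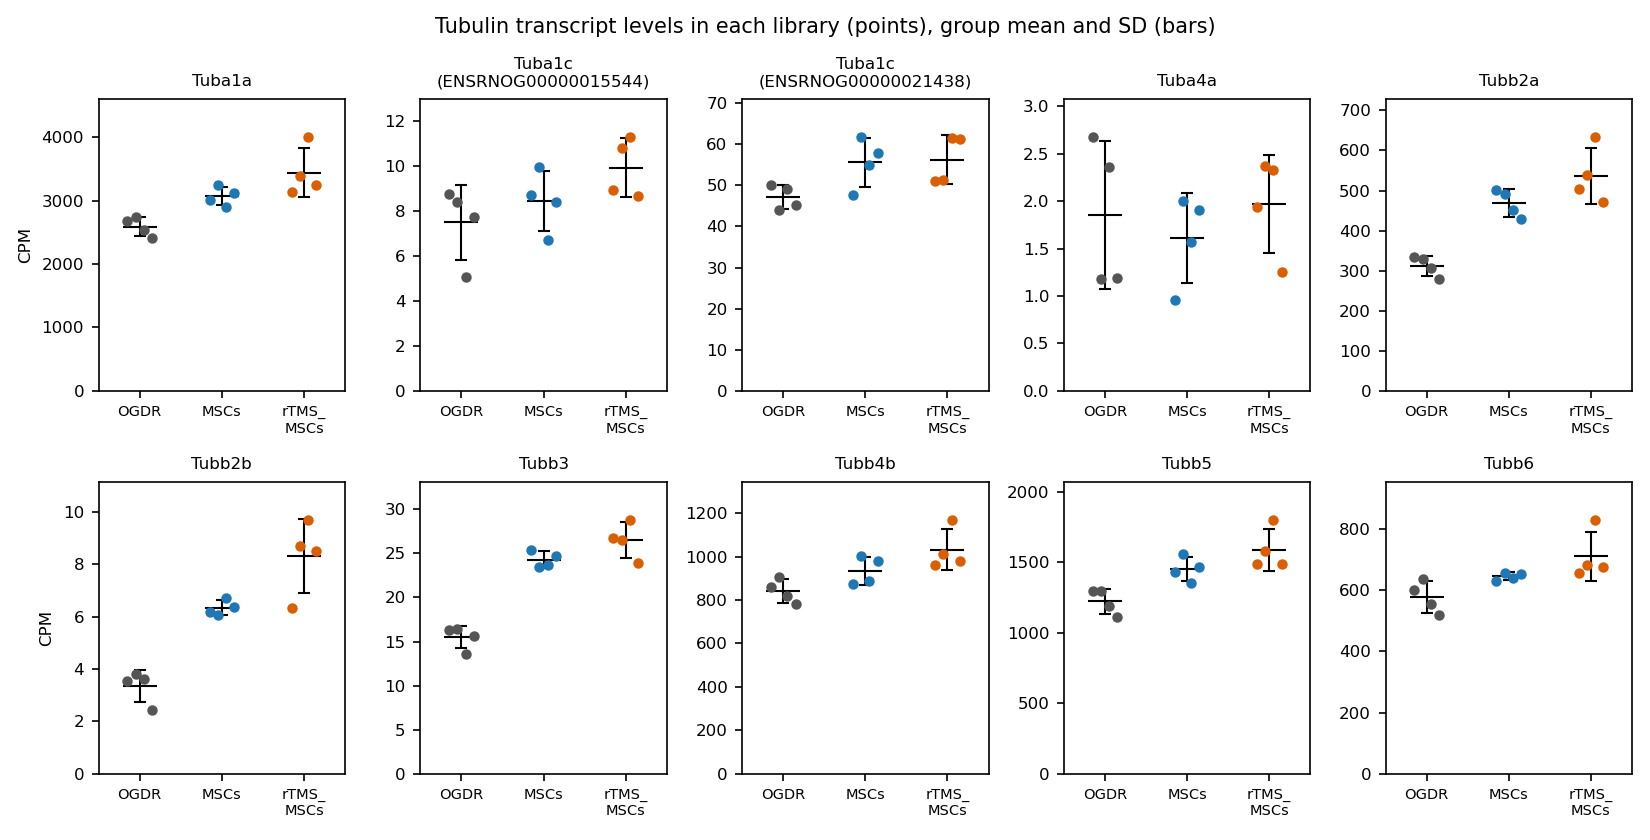
Level of each tubulin row in every library in CPM, with the mean and SD of each group of 4 (horizontal line and bar) and each vertical axis starting at 0. Tubb2a, Tubb2b, Tubb3, Tubb5 and Tuba1a show OGDR points below those of both other groups, while the MSCs and rTMS_MSCs points overlap in every panel.

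With stem cell treatment alone 5 of the 10 tubulin rows rose and none fell. The estimate was higher for 9 rows and lower for Tuba4a. Tubb2b, Tubb3 and Tubb2a rose by 88.4%, 56.8% and 50.4%, and Tuba1a and Tubb5 each by 18.7%. Across all tested genes 11.6% rose and 8.63% fell in this comparison, 20.2% in either direction. The median log2 fold change was 0.24 over the 10 tubulin rows and -0.0021 over all tested genes. Adding stimulation to the stem cells changed none of the 10, while 7.14% of all tested genes rose and 18.1% changed. The estimate was nevertheless higher for all 10 rows, 4 of them at an unadjusted edgeR p under 0.05. With only 10 rows, this count of 0 does not set the isotypes apart from all tested genes. Between the rTMS_MSCs and OGDR groups 8 of the 10 rose and none fell, against 16.2% of all tested genes that rose and 32.4% that changed. The median log2 fold change over the 10 rows was 0.15 for rTMS_MSCs against MSCs (0.015 over all tested genes) and 0.39 for rTMS_MSCs against OGDR (0.0080 over all tested genes). The 3 comparisons share libraries and are not independent of each other. The 10 symbols were chosen with earlier results of these data known, so their counts beside the background are descriptions, not a test of the group. In bulk RNA a difference in the number of cells of a type and one in the RNA per cell cannot be told apart.

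Among the neuronal beta isotypes, Tubb3 (class III beta tubulin) measured 16.3, 16.5, 13.6 and 15.6 CPM in OGDR libraries 1 to 4. It measured 25.4, 23.4, 23.7 and 24.7 CPM in the MSCs libraries and 26.7, 26.6, 28.8 and 24.0 CPM in the rTMS_MSCs libraries. Every treated library lay above every OGDR library, and the treated groups overlapped each other. The means were 15.5 ± 1.30, 24.3 ± 0.913 and 26.5 ± 1.99 CPM (SD, n = 4 each). By edgeR's quasi-likelihood test with Benjamini-Hochberg adjustment, Tubb3 rose with stem cells by 0.65 on the log2 scale (SE 0.091, adjusted p = 1.93e-05). It rose by 0.77 in rTMS_MSCs against OGDR (SE 0.091, adjusted p = 1.68e-06), and by 0.73 without rTMS_MSCs 3. The edgeR log2 difference of rTMS_MSCs from MSCs was 0.13 (SE 0.088, adjusted p = 0.335), and 0.084 without rTMS_MSCs 3.

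Tubb2a, the beta isotype of the neuronal set with the most counts here, measured 334, 329, 306 and 278 CPM in the OGDR libraries. The MSCs libraries held 502, 492, 452 and 429.6 CPM and the rTMS_MSCs libraries 504, 539, 634 and 471 CPM. The OGDR libraries again lay below all others, and the highest value was that of rTMS_MSCs 3. Group means were 312 ± 25.3, 469 ± 34.1 and 537 ± 70.2 CPM (SD, n = 4 each). In the edgeR fit the log2 fold change was 0.59 (SE 0.079, adjusted p = 1.17e-05) for MSCs against OGDR. For rTMS_MSCs against OGDR it was 0.78 (SE 0.079, adjusted p = 2.26e-07, a 1.72-fold rise), and 0.70 without rTMS_MSCs 3. For rTMS_MSCs against MSCs it was 0.20 (SE 0.079, adjusted p = 0.0869), and 0.11 without rTMS_MSCs 3.

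Tubb2b, known for its part in neuronal migration, was counted far less often, at 47 to 77 counts per OGDR library, 118 to 124 per MSCs library and 127 to 183 per rTMS_MSCs library. In CPM these were 3.55, 3.79, 3.61 and 2.44 in OGDR, 6.19, 6.05, 6.71 and 6.37 in MSCs, and 6.32, 8.68, 9.70 and 8.52 in rTMS_MSCs. The OGDR values lay apart from all others, and rTMS_MSCs 1 fell inside the MSCs range. Tubb2b had the largest fold changes of the 10 rows: the edgeR log2 fold change was 0.91 (SE 0.17, adjusted p = 0.000488) for MSCs against OGDR. Against OGDR, rTMS_MSCs libraries were higher by 1.30 on the log2 scale (SE 0.17, edgeR adjusted p = 5.66e-06), a 2.47-fold rise that was 1.22 on that scale without rTMS_MSCs 3. The edgeR value for rTMS_MSCs against MSCs was 0.39 (SE 0.16, adjusted p = 0.0908), and 0.31 without rTMS_MSCs 3. RefSeq lists Tubb2b as a synonym of Tubb2a, the coding regions are near-identical, and how the counting split reads between them was not tested.

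Of the more broadly made beta isotypes, Tubb5 rose with stem cells. Its levels were 1297, 1294, 1189 and 1109.9 CPM in OGDR, 1430.45, 1555, 1353 and 1464 CPM in MSCs, and 1483, 1577, 1799.9 and 1484 CPM in rTMS_MSCs. The OGDR group did not overlap the other groups, which overlapped each other. The edgeR log2 fold change was 0.25 (SE 0.065, adjusted p = 0.00913) for MSCs against OGDR, 0.38 (SE 0.065, adjusted p = 0.000180, a 1.30-fold rise) for rTMS_MSCs against OGDR, and 0.13 (SE 0.065, adjusted p = 0.168) for rTMS_MSCs against MSCs. Without rTMS_MSCs 3 the last 2 values were 0.31 and 0.064.

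Tubb4b, the isotype also known from cilia, measured 859, 906, 819 and 781 CPM in OGDR, 875, 1002, 887 and 979.8 CPM in MSCs, and 961, 1014, 1169.6 and 981 CPM in rTMS_MSCs. The MSCs libraries 1 and 3 lay within the OGDR range, and no rTMS_MSCs library did. The edgeR log2 difference of MSCs against OGDR, 0.15 (SE 0.065), did not pass the test (adjusted p = 0.105). Tubb4b rose in rTMS_MSCs against OGDR by 0.29 on the log2 scale (SE 0.065, edgeR adjusted p = 0.00177), and by 0.23 without rTMS_MSCs 3. Its log2 difference of rTMS_MSCs from MSCs was 0.14 (edgeR adjusted p = 0.134), and 0.076 without rTMS_MSCs 3.

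Tubb6, a beta isotype low in most adult neurons, measured 599.8, 637, 556 and 519 CPM in OGDR and 631, 658, 641 and 655 CPM in MSCs, so that MSCs 1 lay below OGDR 2. In rTMS_MSCs it measured 656, 682, 831 and 676 CPM. The value of rTMS_MSCs 3 stood well above the other 3 of its group, which spanned 656 to 682 CPM. The edgeR difference of MSCs against OGDR was 0.16 on the log2 scale (SE 0.070, adjusted p = 0.112). Tubb6 rose in rTMS_MSCs against OGDR by 0.30 (SE 0.070, adjusted p = 0.00265), and by 0.22 without rTMS_MSCs 3 (adjusted p = 0.00397, both by edgeR). Its log2 difference of rTMS_MSCs from MSCs was 0.14 (edgeR adjusted p = 0.169), and 0.056 without rTMS_MSCs 3.

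**Figure D2:**
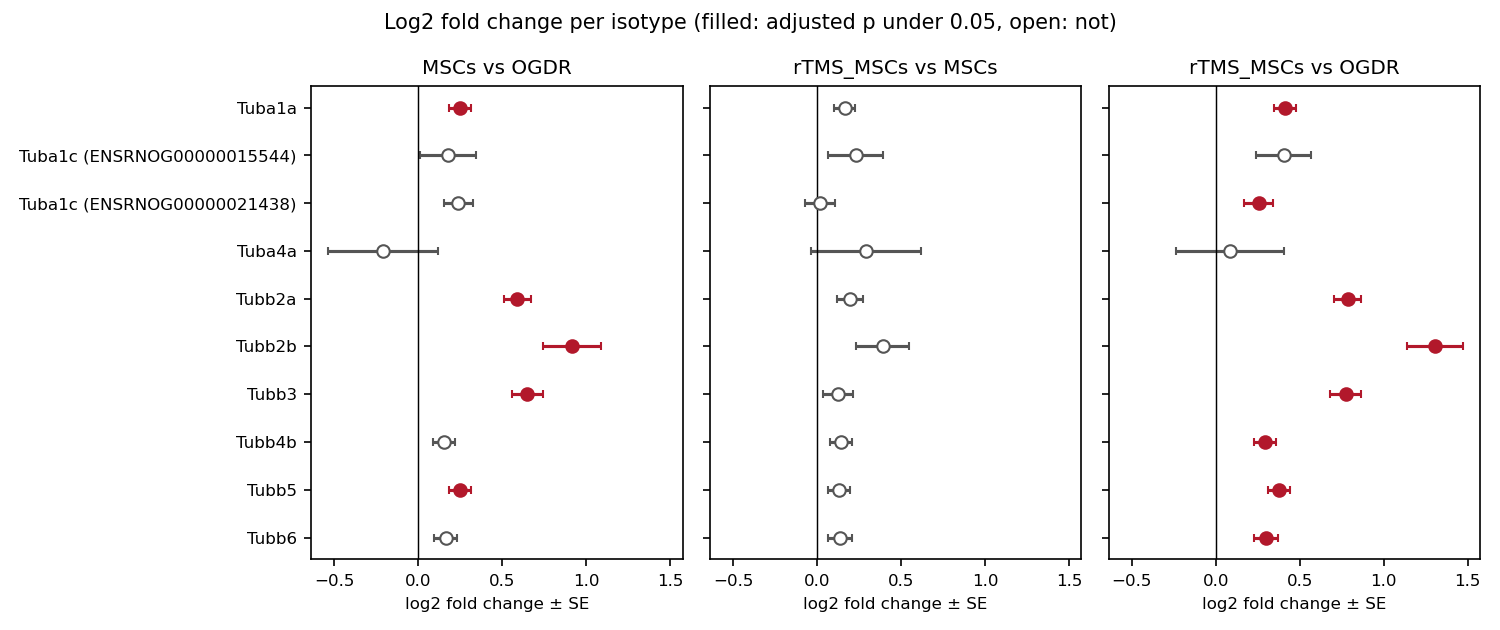
Log2 fold change of each tubulin row in the 3 comparisons, from the edgeR fit of all 12 libraries, with bars of 1 standard error and marks for an adjusted p under 0.05. Tubb2b, Tubb3 and Tubb2a lie farthest above 0 in both comparisons with OGDR, and no row passed the test between rTMS_MSCs and MSCs.

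Nearly all alpha tubulin counts, 97.8% to 98.2% in each library, came from Tuba1a, the alpha isotype known from neuronal development. It measured 2678, 2742, 2538 and 2409 CPM in OGDR, 3019, 3254, 2907 and 3122 CPM in MSCs, and 3138, 3386, 4006 and 3249.9 CPM in rTMS_MSCs. All treated libraries lay above all OGDR libraries. The edgeR log2 fold change was 0.25 (SE 0.064, adjusted p = 0.00864) for MSCs against OGDR. It was 0.41 for rTMS_MSCs against OGDR (SE 0.064, adjusted p = 6.37e-05, a 1.33-fold rise), and 0.33 without rTMS_MSCs 3. For rTMS_MSCs against MSCs it was 0.16 (SE 0.064, adjusted p = 0.0804), and 0.085 without rTMS_MSCs 3. RefSeq lists the older name Tuba1 for both Tuba1a and Tuba1b, whose proteins are near-identical, so the Tuba1a values are uncertain as to which of these genes the reads came from.

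The Tuba1c row ENSRNOG00000021438 measured 50.1, 44.0, 49.0 and 45.3 CPM in OGDR, 47.7, 61.8, 55.0 and 57.8 CPM in MSCs, and 51.0, 51.2, 61.6 and 61.2 CPM in rTMS_MSCs. Tuba1c encodes a broadly made alpha tubulin. The row rose in rTMS_MSCs against OGDR by 0.26 on the log2 scale (SE 0.088, edgeR adjusted p = 0.0306), and the value was 0.21 without rTMS_MSCs 3. It no longer passed the threshold without OGDR 2 (adjusted p = 0.0887), OGDR 4 (0.0824), rTMS_MSCs 3 (0.0741) or rTMS_MSCs 4 (0.0850). Its edgeR log2 difference of MSCs against OGDR was 0.24 (SE 0.088, adjusted p = 0.0622). That difference passed the threshold with DESeq2 (adjusted p = 0.0472), with no low-count filter (0.0471), in a fit of the 8 compared libraries (0.0342), and without MSCs 1 (0.0226) or rTMS_MSCs 3 (0.0322). Against MSCs the rTMS_MSCs libraries differed by 0.018 on the log2 scale, and by -0.027 without rTMS_MSCs 3.

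The other Tuba1c row, ENSRNOG00000015544, measured 5.06 to 8.77 CPM in OGDR, 6.71 to 9.95 CPM in MSCs and 8.67 to 11.3 CPM in rTMS_MSCs, and the groups overlapped. Its edgeR log2 difference of rTMS_MSCs against OGDR was 0.40 (SE 0.17, adjusted p = 0.0672), and 0.34 without rTMS_MSCs 3 (adjusted p = 0.150, also by edgeR). It passed the threshold without OGDR 1 (adjusted p = 0.0463) and without rTMS_MSCs 4 (0.0480). For rTMS_MSCs against MSCs the log2 difference of this row was 0.23, and 0.16 without rTMS_MSCs 3. Tuba4a, the alpha isotype made without a terminal tyrosine, had only 19 to 55 counts per library, or 1.18 to 2.68 CPM in OGDR, 0.956 to 2.00 CPM in MSCs and 1.253 to 2.37 CPM in rTMS_MSCs. No difference in Tuba4a was detectable at this depth: its log2 SE was 0.33 for MSCs against OGDR, where the difference was -0.21 (edgeR adjusted p = 0.716). For rTMS_MSCs the Tuba4a difference was 0.29 from MSCs and 0.084 from OGDR. Without rTMS_MSCs 3 these were 0.20 and -0.0046. RefSeq holds 27 pseudogenes of Tuba genes and 4 of Tubb genes, and the deposited table lists 0 reads as aligned to more than 1 place.

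The number of isotypes that changed depended on which libraries entered the fit, in which the 3 groups share 1 estimate of the spread. For MSCs against OGDR it was 8 of 10 in place of 5 when rTMS_MSCs 3 was left out, although that library is in neither group. It was 6 with DESeq2, with no low-count filter or without MSCs 1. The extra rows were Tubb4b (adjusted p = 0.0271), Tubb6 (0.0210) and the Tuba1c row ENSRNOG00000021438 (0.0322), by the edgeR test. For rTMS_MSCs against OGDR it was 7 of 10 in place of 8 without rTMS_MSCs 3. For rTMS_MSCs against MSCs it was 0, with 4 rows at an unadjusted p under 0.05 and none by DESeq2 or limma voom. That count became 2 without rTMS_MSCs 1 (Tubb2b and Tuba1a) or without rTMS_MSCs 4 (Tubb2a and Tuba1a), and stayed 0 without rTMS_MSCs 3.

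Summed over the 4 alpha rows, levels were 2740.0, 2796, 2594 and 2463 CPM in OGDR, 3077, 3327, 2971 and 3189.8 CPM in MSCs, and 3199.5, 3450.25, 4081 and 3321 CPM in rTMS_MSCs. The sums over the 6 beta rows were 3109.7, 3186, 2887 and 2706 CPM, then 3471, 3737, 3363 and 3559 CPM, and then 3637, 3848, 4473 and 3645 CPM. Both sums lay lower in every OGDR library than in any treated library. The alpha mean was 18.6% higher in MSCs than in OGDR and 32.7% higher in rTMS_MSCs than in OGDR, and the beta mean 18.9% and 31.2% higher. The rTMS_MSCs mean exceeded the MSCs mean by 372 CPM for alpha and 368 CPM for beta. Without rTMS_MSCs 3 these differences were 182 and 177 CPM, and the differences from OGDR were 675 CPM for alpha and 738 CPM for beta in place of 865 and 928 CPM. The ratio of the alpha to the beta sum stayed between 0.878 and 0.912 in all 12 libraries, with means of 0.892 in OGDR, 0.889 in MSCs and 0.900 in rTMS_MSCs. These are counts not divided by gene length, and no row named Tuba1b enters the alpha sum. The ratio is therefore not a measure of the balance of alpha to beta tubulin in the cells. The sums are described without a test because the members were chosen with results of these data known.

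**Figure D3:**
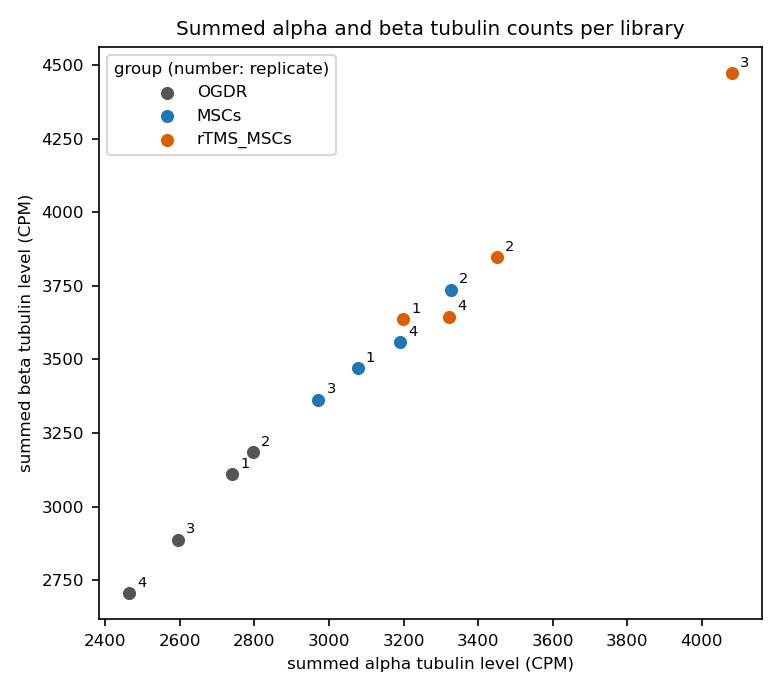
Summed CPM of the 4 alpha rows (horizontal axis) against that of the 6 beta rows (vertical axis). Each point is a library, coloured by group and numbered by replicate. Every MSCs and rTMS_MSCs library lies above every OGDR library in both sums, and rTMS_MSCs 3 is the highest point at 4081 CPM for alpha and 4473 CPM for beta.

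The make-up of the beta pool was described by each isotype's share of the beta tubulin counts in a library, which is free of library scaling but not of gene length. The Tubb2a share was 10.3% to 10.7% in OGDR, 12.1% to 14.5% in MSCs and 12.9% to 14.2% in rTMS_MSCs. Tubb3 took 0.472% to 0.577% of the beta counts in OGDR, 0.627% to 0.732% in MSCs and 0.644% to 0.735% in rTMS_MSCs. Tubb2b took 0.0902% to 0.125%, 0.162% to 0.199% and 0.174% to 0.234%. All 3 shares were thus higher in every treated library than in any OGDR library. The Tubb4b share ran the other way, at 27.6% to 28.9% in OGDR, 25.2% to 27.5% in MSCs and 26.2% to 26.9% in rTMS_MSCs. That of Tubb6 was 19.2% to 20.0%, 17.6% to 19.1% and 17.7% to 18.6%, also without overlap with OGDR. Shares make up a fixed whole, so a gain by some isotypes lowers the others, and the comparisons of shares are not independent. In OGDR, MSCs and rTMS_MSCs the mean levels were 841, 936 and 1031 CPM for Tubb4b and 578, 646 and 711 CPM for Tubb6. The Tubb5 share had means of 41.1%, 41.0% and 40.7%, and the MSCs range overlapped that of OGDR. In exact two-sided permutation tests, 10 of 30 comparisons of shares (5 isotypes in each of the 2 comparisons with OGDR) reached p = 0.0286, the smallest that 4 against 4 allows. After Benjamini-Hochberg adjustment over the 30 their p was 0.0857, so no difference in shares passed. Larger differences could not have lowered these p-values with 4 libraries a group, so the adjusted test cannot decide on these shares. The isotypes were also chosen with earlier results of these data known.

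**Figure D4:**
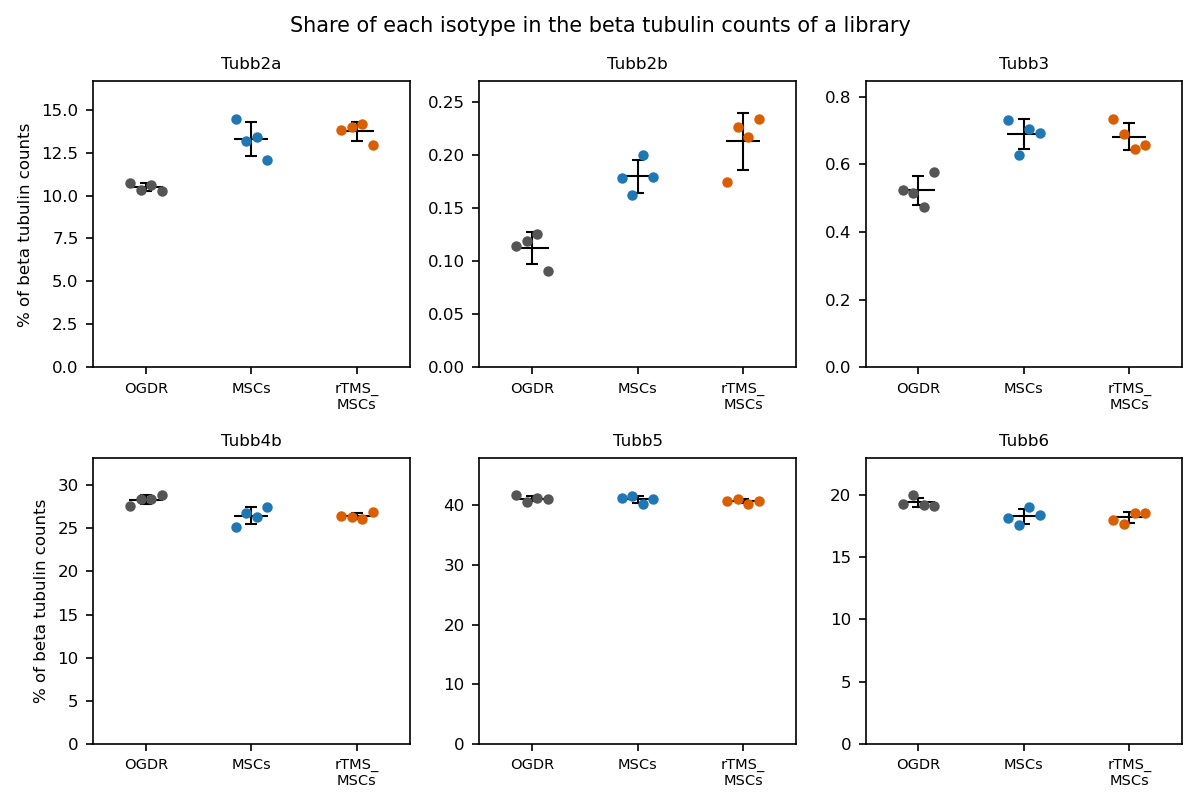
Share of each of the 6 beta isotypes in the beta tubulin counts of a library, in percent on axes from 0, with group means and SD. The OGDR shares of Tubb2a, Tubb2b and Tubb3 lie below, and those of Tubb4b and Tubb6 above, all shares in the treated groups.

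Some markers of other cell types changed between the same groups. The summed level of the 12 Schwann or glial genes was 1320 to 1407 CPM in OGDR, 1786 to 1861 CPM in MSCs and 1687 to 1758 CPM in rTMS_MSCs. Of its 10 tested members 7 rose and none fell in MSCs against OGDR, where 11.6% of all tested genes rose and 8.63% fell. Those that rose included Ncam1 by 0.84 and Gfap by 1.19 on the log2 scale, while Aqp4 was at 0. In rTMS_MSCs against MSCs 2 of the 10 rose and 2 fell, where 7.14% of all tested genes rose and 10.9% fell. In rTMS_MSCs against OGDR 7 rose and 1 fell, where 16.2% of all tested genes rose and 16.2% fell. Of 12 mesenchymal stromal genes, Lum had no count, Dcn 1 count and Col1a1 a mean of 5.44 CPM. Pdgfra averaged 273 CPM, Pdgfrb 50.6 CPM and Nt5e 18.1 CPM. The sum of the 12, mostly Vim, was 5298 to 5704 CPM in OGDR, 4926 to 5104 CPM in MSCs and 5143 to 5811 CPM in rTMS_MSCs. Of 8 tested in MSCs against OGDR 3 rose and 1 fell. On the log2 scale Nt5e rose by 0.73, Pdgfrb by 0.47 and Col3a1, at 0.901 CPM in MSCs, by 1.47, and Vim fell by 0.15. Of 11 neuronal genes, which include Tubb3 itself, Nefl, Elavl4 and Syt1 were at 0, Gap43 had 1 count and Stmn2 averaged 0.169 CPM. Only 3 neuronal genes could be tested. The sum of all 11 was 37.7 to 39.0 CPM in OGDR, 44.2 to 59.8 CPM in MSCs and 43.4 to 46.0 CPM in rTMS_MSCs. Map2, which encodes a protein that binds neuronal microtubules, fell in rTMS_MSCs against MSCs by 0.88 (edgeR adjusted p = 0.00540) and against OGDR by 0.55 (adjusted p = 0.0332). The 10 chromaffin genes summed to 272 to 339 CPM in OGDR, 189.99 to 235 CPM in MSCs and 199.9 to 215 CPM in rTMS_MSCs. Of 5 tested in MSCs against OGDR, Scg2 fell by 0.53 on the log2 scale, and Th and Cyb561, both under 3 CPM, rose by 2.13 and 1.84. Macrophage genes summed to 51.9 to 59.9, 51.3 to 66.8 and 64.4 to 78.0 CPM, mostly Cd14 (mean 58.3 CPM), with Adgre1, C1qa and C1qb at 0. Endothelial genes summed to 88.0 to 102, 89.6 to 96.8 and 84.3 to 93.7 CPM, mostly Cdh5 (mean 79.4 CPM), with Kdr at 0. The part of these markers in the tubulin differences was not tested.

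Genes of cell division were looked at because dividing cells use much tubulin. Of 12, only Aurkb, a mitotic kinase, changed in MSCs against OGDR, where it rose, while 11.6% of all tested genes did. In rTMS_MSCs against OGDR 5 rose and 2 fell, where 16.2% of all tested genes rose and 16.2% fell. Those that rose included Aurkb by 0.31, Birc5 by 0.39, Ccnb2 by 0.30 and Cdk1 by 0.20 on the log2 scale. Bub1 fell by 0.23 and Kif11 by 0.26, and these are named after their values were seen. Their number was 3 in place of 1 for the first comparison without rTMS_MSCs 3, 2 without OGDR 1 or OGDR 3, and 4 in place of 7 for the second without OGDR 4. Between rTMS_MSCs and MSCs, 2 rose and 1 fell, where 18.1% of all tested genes changed. That total was 1 without MSCs 1, MSCs 3 or rTMS_MSCs 3, and 6 without rTMS_MSCs 4. The part of cell division in the tubulin differences was not tested.

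Of the machinery that folds tubulin, some genes fell with stem cells. Of 21 tested genes for the prefoldin and CCT chaperones, which take up the new chain, and for the tubulin cofactors, which join alpha to beta, none rose and 7 fell in MSCs against OGDR, where 8.63% of all tested genes fell. The median log2 fold change of the 21 was -0.13, against -0.0021 for all tested genes. The fallen genes included the CCT subunits Cct4 (-0.25, adjusted p = 0.000974 by edgeR) and Cct2 (-0.18), the prefoldin subunit Pfdn5 (-0.26) and Arl2 (-0.38), a small GTPase that works with the cofactors. The number was 4 without OGDR 4 or MSCs 1. Between rTMS_MSCs and MSCs 4 rose, Pfdn5 (0.38), Pfdn1 (0.32), Tbcb (0.28) and Pfdn2 (0.25), and Tbcel fell (-1.02, at a mean of 0.938 against 1.91 CPM). Of all tested genes 18.1% changed in that comparison. The total of 5 was 2 without MSCs 3 or rTMS_MSCs 3, 3 without OGDR 4, MSCs 1 or rTMS_MSCs 2, and 9 without rTMS_MSCs 4. Against OGDR, rTMS_MSCs libraries had higher Pfdn1 (0.24) and Tbcb (0.26), where 32.4% of all tested genes changed, and this total of 2 was 0 without OGDR 3, 1 without OGDR 4 and 4 without rTMS_MSCs 4.

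Among 12 genes of tubulin message autoregulation none rose in any comparison. The shares of all tested genes that fell were 8.63% in MSCs against OGDR, 10.9% in rTMS_MSCs against MSCs and 16.2% in rTMS_MSCs against OGDR. Cnot7, a deadenylase of the CCR4-NOT complex, fell in MSCs against OGDR by 0.30 on the log2 scale, a change that was lost without OGDR 4, MSCs 1 or MSCs 2, which left 0. In rTMS_MSCs against MSCs Cnot6 fell by 0.57 and the scaffold Cnot1 by 0.23, and the count was 1 without MSCs 1, MSCs 3 or rTMS_MSCs 3. In rTMS_MSCs against OGDR 4 fell: Cnot7 by 0.31, Cnot6l by 0.42, Cnot1 by 0.19 and Ttc5, the factor that recognises new tubulin, by 0.20 (SE 0.072, edgeR adjusted p = 0.0416). These were 1 without OGDR 4 and 2 without MSCs 1, rTMS_MSCs 2 or rTMS_MSCs 3.

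Among enzymes that modify tubulin tails and lysines, the number changed was 4, 3 and 6 of 21 tested in MSCs against OGDR, rTMS_MSCs against MSCs and rTMS_MSCs against OGDR. Over all tested genes 20.2%, 18.1% and 32.4% changed, so these counts are near the background. Of the 21, 2 rose and 2 fell in MSCs against OGDR: Vash1, which removes the terminal tyrosine of alpha tubulin, rose by 0.29 on the log2 scale and Ttll3, a glycylase, by 1.08, while Ttll7, which adds glutamates to beta tubulin, fell by 0.66 and Ttl, which puts the tyrosine back, by 0.24. The total was 2 without OGDR 2, OGDR 3, OGDR 4, MSCs 1 or MSCs 2. In rTMS_MSCs against OGDR 3 rose and 3 fell, with Ttll7 lower by 0.90 (SE 0.12), Ttll4 by 0.56 and Ttl by 0.48 (SE 0.080), and Vash1 higher by 0.20. In rTMS_MSCs against MSCs Tpgs1 rose by 0.34, and Ttll4 and Ttl fell by 0.44 and 0.24.

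The other alpha and beta tubulin genes were scarce. Tuba3a, an alpha tubulin, had 1 to 7 counts per OGDR library, 3 to 10 per MSCs library and 12 to 17 per rTMS_MSCs library, and rose in rTMS_MSCs against OGDR by 2.18 on the log2 scale (SE 0.54, edgeR adjusted p = 0.00403). Tubb4a, Tuba8, Tuba3b, Tubal3 and Tubb1 had 0 to 11 counts per library and were too low to test. Of the gamma class, which seeds microtubules, Tubg1 rose in rTMS_MSCs against OGDR by 0.28 and against MSCs by 0.23 (edgeR adjusted p = 0.0423), and Tubg2 rose against OGDR by 0.35. Tube1 (epsilon tubulin), at group means of 23.5, 25.1 and 26.3 CPM, and Tubd1 (delta tubulin), at 8.08, 7.38 and 7.79 CPM, did not pass the test in any comparison. Tubg1 was the only one of the 5 other tubulins tested to change between rTMS_MSCs and MSCs. That count was 0 without OGDR 1, MSCs 1, MSCs 3, rTMS_MSCs 2 or rTMS_MSCs 3, and 2 without OGDR 4. Of 11 genes of the gamma-tubulin ring complex, the seeding complex, none changed in MSCs against OGDR, and 3 rose and 2 fell in rTMS_MSCs against OGDR. Over all tested genes 20.2% and 32.4% changed in these comparisons. Besides Tubg1 and Tubg2 these were Mzt2b (0.45), and, lower, Tubgcp5 (-0.50) and Nedd1 (-0.50). Between rTMS_MSCs and MSCs Mzt2b and Tubg1 rose, where 18.1% of all tested genes changed. Those 2 became 0 without MSCs 1 or MSCs 3 and 1 without OGDR 1, MSCs 4, rTMS_MSCs 2 or rTMS_MSCs 3, and the 0 for MSCs against OGDR became 2 without rTMS_MSCs 3 and 1 without OGDR 1, MSCs 4, rTMS_MSCs 1 or rTMS_MSCs 4.

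The genes whose log2 CPM followed that of 2 isotypes most closely over the 12 libraries were sought among 10243 genes with a mean of at least 5 CPM. For Tubb3 they were Dynll2, a dynein light chain, with a Pearson correlation of 0.98, Flot2 with 0.98 and Ssc5d with 0.98, where the median over all candidates was -0.031. For Tuba1a they were Arpc1b, a subunit of the actin-nucleating Arp2/3 complex, with 0.99, Gipc1 with 0.99 and Micos13 with 0.98, where the median was 0.013. These are descriptions over libraries that share 3 group means and, for each library, 1 depth.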

How the data were processed

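RNA was isolated with TRIzol, enriched for poly(A) messages on oligo(dT) beads and copied from random primers, per the labels' protocols. Per the submitters' processing notes, HISAT2 2.1.0, HTSeq 0.11.2, DESeq2 1.40.1 and the build mRatBN7.2 were used. No source used here gives the strand setting. The deposited table holds raw counts per gene as the authors made them, for 30454 Ensembl genes in 12 libraries, 26135 of them with a symbol. Its 5 summary lines stayed out of library sizes and tests. Reads on no feature were 51.7% to 52.7% and ambiguous reads 0.613% to 0.695% of each library. The series text speaks of a microarray and of 20 samples, and the labels describe 12 sequencing libraries.

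In R 4.3.3, 13692 of the 20776 genes with a count passed the filterByExpr limits of edgeR 4.0.16 (at least 10 counts, 15 in total). After TMM scaling, a single quasi-likelihood model of the group means gave the 3 contrasts, adjusted by Benjamini-Hochberg with a threshold of 0.05. The common biological coefficient of variation was 0.094. The test was tried on simulated counts with known fold changes. Shares of class counts were compared by exact permutation tests (SciPy 1.17.1). Gene lengths were not used here, so shares were not divided by length. Where counts of different genes are set side by side, summed or given as a ratio, they are likewise not corrected for length. The sums had been planned with a test, which is not given because the members and lists were chosen with earlier results of these data known. Genes of the related lists were named where they were among up to 4 of a list with the smallest p under the threshold in a comparison, and likeness by the 3 highest correlations. Other alpha or beta tubulin genes at or above 1 CPM in a group were to be named, and none reached it. Tuba3a falls under the list rule, and Tube1 and Tubd1 were named after their values were seen. Alternatives were other scalings, DESeq2 1.42.0, limma 3.58.1 voom, no low-count filter, the 8 compared libraries only, a replicate block, a threshold of 0.01 and leaving out libraries. No 2 libraries agreed within sampling noise, with a chi-square per degree of freedom of at least 4.02 in each group. At 1 CPM a gene had about 20 counts, and counting error sets the precision of rows such as Tuba4a.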

Additional observations from a re-analysis of the deposited data

Results flagged for a closer look

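With 4 samples a group, a value was picked out where its gap to the nearest other sample was a larger part of the group's range than Dixon's critical value. Of 66 such checks 4 picked out a value, and chance alone picks about 1 in 20. Tubb6 in rTMS_MSCs 3 measured 831 CPM, against 656 to 682 CPM in the other 3 libraries of that group. The share of the Tuba1c row ENSRNOG00000015544 in the alpha tubulin counts was 0.195% in OGDR 3, against 0.300% to 0.320% in the other OGDR libraries. The share of the Tuba1c row ENSRNOG00000021438 was 1.55% in MSCs 1, against 1.81% to 1.86% in the other MSCs libraries. Tubb6 took 20.0% of the beta tubulin counts in OGDR 2, against 19.2% to 19.3% in the other OGDR libraries.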

How the results depend on the processing

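The number of isotypes that changed in MSCs against OGDR was 5, and 8 in a fit of the 8 compared libraries or without both MSCs 3 and rTMS_MSCs 3. Leaving out single libraries gave 5 to 8. It was 6 with DESeq2 or with no low-count filter. In rTMS_MSCs against MSCs it was 0, and 2 without the low-count filter (Tubb2a and Tuba1a), with 0 to 2 when single libraries were left out. In rTMS_MSCs against OGDR it was 8, with 7 to 9. With the replicate number as a block the counts were 5, 0 and 8. Same-numbered libraries did not deviate together (correlations of -0.21 to 0.13, 1 of 12 pairs over 0.1), and the block moved the calls over all genes from 2763 to 2577, 2475 to 1995 and 4439 to 4185. Of 600 alternative values of isotype log2 fold changes, 10 turned direction. They lay in both comparisons of Tuba4a with OGDR, and in rTMS_MSCs against MSCs for the Tuba1c row ENSRNOG00000021438. None of these differences passed the test in the main fit. Leaving out single libraries, Tuba4a ranged from -0.37 to 0.022 in MSCs against OGDR and from -0.081 to 0.31 in rTMS_MSCs against OGDR, and was -0.0057 in the latter without both libraries 3. That Tuba1c row ranged from -0.048 to 0.073 in rTMS_MSCs against MSCs, and was -0.033 without both. Of 390 alternative differences in shares, in percentage points, 22 turned direction, in comparisons whose groups overlapped. In MSCs against OGDR, Tuba1a ranged from -0.025 to 0.12, ENSRNOG00000021438 from -0.085 to 0.057 and Tubb5 from -0.267 to 0.192 (0.192 without both). In rTMS_MSCs against OGDR, ENSRNOG00000015544 ranged from -0.029 to 0.013. In rTMS_MSCs against MSCs, Tuba4a ranged from -0.0016 to 0.011, Tubb3 from -0.028 to 0.0066 (0.0098 without both), Tubb4b from -0.443 to 0.330 (0.0434 without both) and Tubb6 from -0.336 to 0.153 (0.0339 without both). Of 378 alternative counts of changed genes in the related lists, 88 moved by over 1.5 times. Shares per gene length were not run because no lengths were at hand. The causes of these shifts were not tested.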
